A study of Mus musculus with 4 samples.

Results

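Interleukins and their receptors were followed across cell types in mouse aorta, in a study of atherosclerosis and of methoxazolamide (MTZ), which the series describes as an inhibitor of the enzyme CA1. Members were every gene whose symbol reads Il, a number and at most 1 letter, or Il, a number and an r with any ending. The rule matched 74 symbols on 76 of the 32285 rows of the gene list (34 ligands and 40 receptors). The symbol Il11ra2 stands on 3 of those rows. Nuclei were isolated from aortic tissue of CA1 knockin ApoE-/- mice, a genotype that all groups shared, and sequenced from the 3' end with unique molecular identifiers (UMIs). There were 4 groups with 1 library each. The untreated mice had no treatment. The high-fat mice received a high-fat diet. The MTZ-after mice had the same diet and MTZ once disease was established, and the MTZ-simultaneous mice had MTZ along with the diet. The promoter of the knockin, the diet of the untreated mice, the age, and the number of mice behind a library were not given in the sources used here. With 1 library per group no test was possible, so no difference below carries a p-value, and intervals cover counting error only.

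Interleukins are secreted proteins by which leukocytes and tissue cells signal to each other. Ligands of the IL-1 family bind chains of the IL-1 receptor family, which share with Toll-like receptors an intracellular domain that acts through MYD88, and the family carries its own brakes, an antagonist and decoy receptors. Most other interleukins bind pairs or triplets of chains that act through JAK kinases and STAT factors, and the chains are shared: the common gamma chain serves IL-2, IL-4, IL-7, IL-9, IL-15 and IL-21. In atherosclerosis IL-1beta is the best-known ligand, made by activated myeloid cells and sensed by endothelial, mural and fibroblast cells of the vessel wall.

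Upstream sequences are shown for the 3 IL-1 receptor ligands, because these genes differed in the myeloid nuclei that held them, and for Il6, which differed between the fibroblast-like clusters. Each is the 250 bases before the start site in RefSeq (GRCm38.p6), written 5′ to 3′ on the strand of the gene, with matches to any of 4 motifs on either strand in capitals. The motifs were TGANTCA (AP-1), TTGCNNAA (C/EBP), GAGGAAG (PU.1) and an NF-kB motif.
Il1a, chr2:129309973-129310222, minus strand: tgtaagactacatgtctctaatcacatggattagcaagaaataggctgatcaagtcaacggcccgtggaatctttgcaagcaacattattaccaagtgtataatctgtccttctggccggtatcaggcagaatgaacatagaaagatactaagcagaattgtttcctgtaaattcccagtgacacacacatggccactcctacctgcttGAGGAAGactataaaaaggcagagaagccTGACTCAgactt
Il1b, chr2:129371140-129371389, minus strand: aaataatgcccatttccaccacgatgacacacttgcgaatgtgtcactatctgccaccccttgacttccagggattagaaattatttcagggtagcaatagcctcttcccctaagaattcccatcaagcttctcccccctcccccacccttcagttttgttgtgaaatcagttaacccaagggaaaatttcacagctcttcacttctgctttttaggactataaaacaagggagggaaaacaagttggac
Il1rn, chr2:24336610-24336859, plus strand: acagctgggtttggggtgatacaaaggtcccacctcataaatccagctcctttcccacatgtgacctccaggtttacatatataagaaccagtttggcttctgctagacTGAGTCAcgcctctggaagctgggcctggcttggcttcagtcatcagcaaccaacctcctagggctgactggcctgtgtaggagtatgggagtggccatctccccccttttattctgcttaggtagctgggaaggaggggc
Il6, chr5:30012864-30013113, plus strand: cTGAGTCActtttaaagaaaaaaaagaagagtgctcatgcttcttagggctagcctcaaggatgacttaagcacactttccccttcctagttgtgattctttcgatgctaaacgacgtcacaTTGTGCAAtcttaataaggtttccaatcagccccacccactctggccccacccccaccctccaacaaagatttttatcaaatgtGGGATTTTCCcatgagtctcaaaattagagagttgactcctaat

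Il6 held an AP-1, a C/EBP and an NF-kB match, Il1a an AP-1 and a PU.1 match, and Il1rn an AP-1 match. These letters did not occur in the Il1b window. Among 32851 RefSeq windows of the same length, 6.75% held an AP-1 match, 9.56% C/EBP, 1.41% NF-kB and 10.6% PU.1. RefSeq windows were at hand for 58 of the 74 symbols (72 windows), of which 13 held AP-1, 12 C/EBP, 6 NF-kB and 7 PU.1. A match describes the letters only. Il1rn has a further pair of RefSeq start sites, whose windows are not printed, and 1 of these held an NF-kB match.

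After filters 99718 nuclei remained, from 17845 to 35104 per library, with 29249571 to 64636178 UMIs and medians of 826 to 2033 UMIs per nucleus. The high-fat and MTZ-after libraries were the shallowest. Nuclei fell into 24 clusters, which were given 16 class names with the suffix -like from marker genes; members served neither for clustering nor for naming. Classes of tissue around the vessel (fat, mesothelium, adrenal, liver, neurons) made up 31.5% of nuclei in untreated, 6.57% in high-fat, and 30.5% and 22.5% in the MTZ-after and MTZ-simultaneous libraries. Macrophage-like nuclei made up 8.64, 51.9, 12.6 and 13% in the same order. Markers of 1 class were also counted in others: the 17 macrophage markers summed to 564 CPM (UMIs scaled by all UMIs of the class, in the standard CPM unit) in untreated endothelial-like nuclei and to 1902 CPM in high-fat ones. Pairs of libraries shared 119 to 376 barcodes. Car1, the mouse gene for CA1, was counted at 63.4 to 151 CPM and Apoe at 8.87 to 10.9 CPM, and neither value checks the labels, because all groups carry both alleles.

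A level below is the sum of a gene's UMIs in a class as CPM of that class, and values of the 4 libraries follow the order untreated, high-fat, MTZ-after, MTZ-simultaneous. Levels are compared within a gene, not between genes, since long genes gather more nuclear reads. Counts were made for 69 symbols, and 42 had at least 50 counts in some library and named class (10 ligands, 32 receptors). Among classes with at least 200 nuclei, 24 of the 42 had their highest level in the same class in at least 3 libraries, and 10 in all 4. T or NK-like nuclei led for 6 of the 24 (Il18r1, Il18rap, Il2rb, Il27ra, Il12rb2, Il23r). Macrophage-like nuclei led for Il1a, Il1rn, Il10ra and Il10rb, fibroblast-like nuclei for Il1r1, Il1rl2, Il6 and Il31ra, and mesothelial-like nuclei for Il18, Il1rapl1, Il17re and Il16. B cell-like nuclei led for Il5ra and Il9r, endothelial-like nuclei for Il15 and Il4ra, brown adipocyte-like nuclei for Il15ra, and lymphatic endothelial-like nuclei for Il7.

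**Figure D1:**
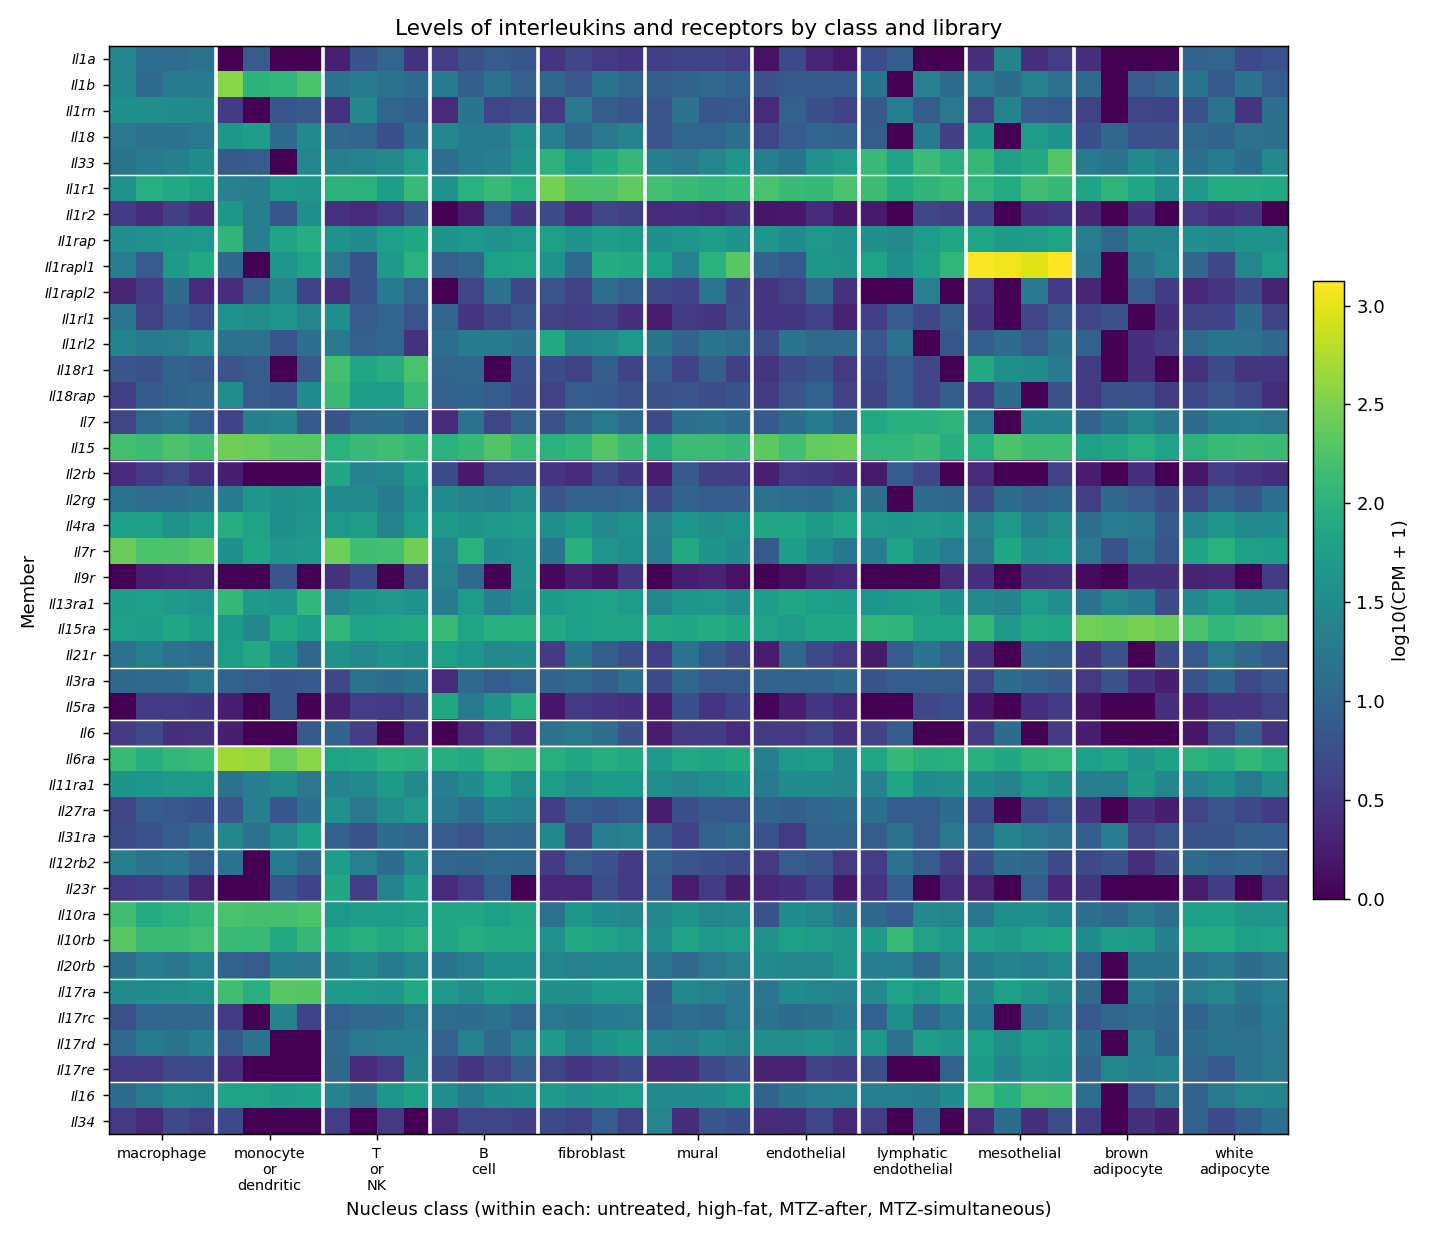
Levels of the 42 described members (rows, by family) in 11 nucleus classes, each with 4 columns, 1 per library, as log10(CPM + 1). The brightest block is Il1rapl1 in mesothelial-like nuclei (944 to 1325 CPM), and Il1b stands out in monocyte or dendritic-like nuclei; the high-fat columns of the mesothelial-like, brown adipocyte-like and monocyte or dendritic-like classes rest on 73, 80 and 85 nuclei.

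The agonists of the IL-1 receptor were held by different myeloid nuclei, although Il1a and Il1b lie 54.6 kb apart on chromosome 2. Il1b, the secreted agonist processed by caspase-1, reached 367 (95% interval 334 to 402), 103 (57.7 to 170), 113 (67.8 to 176) and 174 (130 to 226) CPM in monocyte or dendritic-like nuclei. The untreated library was highest and its interval did not overlap the others. In that class 26.8, 8.24, 9.15 and 13.9% of nuclei had an Il1b UMI, at medians of 1955.5, 1066, 919.5 and 1288.5 UMIs. After thinning every nucleus to 500 UMIs the shares were 15.8, 5.88, 6.10 and 9.64%, still highest in untreated. Endothelial-like nuclei had Il1b UMIs in 0.709 to 1.35% at medians of 791 to 1890 UMIs. Higher shares were found in other non-myeloid classes of untreated, 3.46% of mesothelial-like (median 2009.5 UMIs), 3.58% of brown adipocyte-like (3951) and 5.41% of 185 Schwann-like nuclei (3087), which after thinning were 1.13, 0.413 and 0%. The 4 shares were of 526, 85, 164 and 166 nuclei, so the high-fat level rests on 15 UMIs. Other clusterings gave 244 to 279 CPM for Il1b in the untreated class.

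Il1a, the agonist that is active without cleavage, was counted once among the monocyte or dendritic-like nuclei of all libraries, and stood at 27.0, 12.7, 12.2 and 13.5 CPM in macrophage-like nuclei. Within that class cluster 16 (led by Tmem267, Mamdc2 and Rgs1) had the highest Il1a level in each library, at 39.7, 33.8, 31.8 and 26.8 CPM. In MTZ-after its interval (13.7 to 62.6, on 8 UMIs) overlapped that of cluster 3 (3.92 to 36.8, on 4 UMIs). The intervals overlapped in MTZ-simultaneous too (17.8 to 38.7 on 28 UMIs, and 5.34 to 38.4 on 5 UMIs). Cluster 12, led by Clec10a, Cd163 (a scavenger receptor), F13a1, Ccr2 and Mrc1 (the mannose receptor), had 2.68, 6.72, 3.91 and 2.99 CPM. Il1b went the other way inside the class and was highest in cluster 12 in untreated (69.6 CPM), high-fat (18.9 CPM) and MTZ-after (21.9 CPM), while in MTZ-simultaneous cluster 12 (33.8 CPM) and cluster 3 (36.2 CPM, 11 UMIs) overlapped. Cluster 12 lies at the border of the class: it had 3 macrophage and 3 monocyte or dendritic markers among its 50 leading genes, and with another seed, the stricter filter or centred libraries a cluster led by Cd163, F13a1 and Clec10a took the monocyte or dendritic name.

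Il1rn, the receptor antagonist, was alike in the 4 libraries when summed over all macrophage-like nuclei, at 36.5, 35.4, 32.3 and 28.9 CPM, with intervals that all overlapped. Its level was highest in cluster 3, which is led by Wfdc17, Lyz2 (lysozyme), Fabp5 (a fatty acid carrier) and Spp1 (osteopontin). Cluster 3 held 82.2, 79.6, 119 and 52.6 CPM, against 10.1, 24.3, 20.5 and 19.3 CPM in cluster 9, the most numerous of the class. Cluster 16 had 28.8 (22.3 to 36.6), 45.8 (35.0 to 58.8), 83.4 (51.7 to 128) and 49.8 (37.2 to 65.3) CPM. In MTZ-after and MTZ-simultaneous these intervals overlapped those of cluster 3 (81.7 to 167 and 30.1 to 85.5). Untreated was thus lowest in clusters 9 and 16, and the likeness of the class sum did not hold within them. In all kept nuclei Il1rn was 5.77 CPM in untreated and 23.3 CPM in high-fat, beside 36.5 and 35.4 CPM within the macrophage-like class. In such sums over all nuclei, more nuclei of a type and more RNA per nucleus cannot be told apart.

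**Figure D2:**
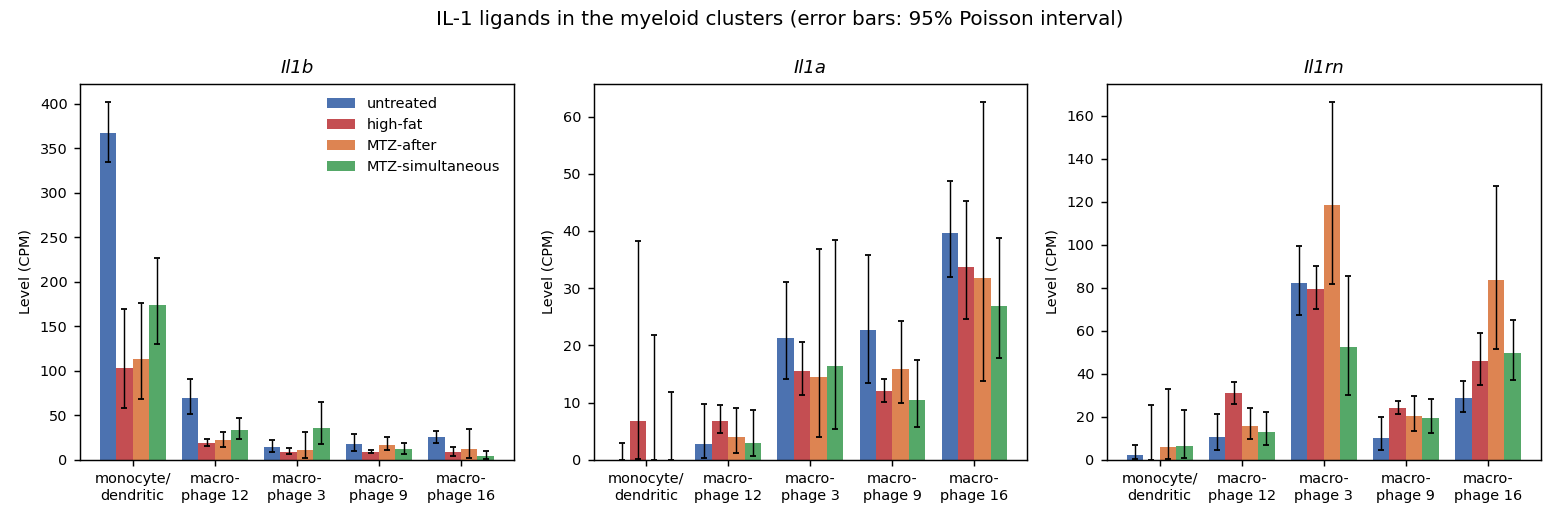
Levels (CPM) of Il1b, Il1a and Il1rn in the monocyte or dendritic-like cluster and in the 4 macrophage-like clusters, with bars for the 4 libraries and error bars for the 95% Poisson interval (counting error only). Il1b peaks at 367 CPM in untreated monocyte or dendritic-like nuclei, Il1a is highest in macrophage cluster 16 and Il1rn in macrophage cluster 3. For Il1a and Il1rn the intervals of these clusters overlap in both MTZ libraries.

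Il33, the nuclear alarmin of stromal cells, was held by lymphatic endothelial-like (127, 63.2, 137, 93.2 CPM), mesothelial-like (118, 59.0, 78.5, 194 CPM) and fibroblast-like nuclei (99.8, 45.0, 80.2, 118 CPM). The fibroblast-like level was lowest in high-fat. That class joined a pair of clusters: cluster 13 (Opcml, Scara5, Has2) and cluster 6 (Cemip, Mmp13, Tnfrsf11b, Tnc), and 2643 of the 3987 high-fat nuclei were in cluster 6 against 113 of 2389 in untreated. Within cluster 13 Il33 was 110 (101 to 119), 96.9 (82.8 to 113), 93.5 (81.0 to 107) and 136 (124 to 150) CPM. Here the high-fat interval overlapped those of untreated and MTZ-after. Cluster 6 was lower in each library (12.1, 25.3, 15.9, 34.9 CPM). Il18, a caspase-1 substrate that drives interferon gamma in lymphocytes, stood at 43.9, 50.6 and 39.5 CPM in mesothelial-like nuclei of untreated, MTZ-after and MTZ-simultaneous. It was counted at 0 among the 73 high-fat ones. The floor set for a count of 0 equals 35.4 CPM there, and the upper end of the exact Poisson interval lies above this floor. The 0 was therefore not read as a lower level. Monocyte or dendritic-like nuclei held Il18 as well, at 43.5 (32.7 to 56.7), 54.9, 11.9 and 28.9 CPM, on 54, 8, 2 and 9 UMIs.

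Il31ra, the signalling receptor for IL-31, and Il1rl2, the receptor for IL-36, were also held by fibroblast-like nuclei, and they differed between libraries within cluster 13. Il31ra was 30.5 (25.9 to 35.7), 5.19 (2.37 to 9.85), 22.6 (16.6 to 29.9) and 24.5 (19.5 to 30.4) CPM there. The high-fat library was low and its interval was below the other 3. Il1rl2 was 85.5 (77.7 to 93.9), 34.0 (25.9 to 43.9), 32.4 (25.2 to 41.0) and 49.9 (42.6 to 58.1) CPM, so untreated was high and all 3 high-fat-fed libraries were below it. Il31ra was not confined to fibroblast-like nuclei. Monocyte or dendritic-like nuclei had 26.6, 13.7, 29.7 and 61.1 (36.8 to 95.3) CPM of Il31ra, on 33, 2, 5 and 19 UMIs. Il6, the acute-phase cytokine, was mostly a cluster 6 gene, with 69.3 (49.5 to 94.3), 20.7 (16.7 to 25.3), 63.8 (42.4 to 92.2) and 10.8 (4.64 to 21.2) CPM, against 1.41 to 7.38 CPM in cluster 13. Untreated and MTZ-after were high and the other two low, the former on 40 and 28 UMIs among 113 and 274 nuclei. Il1r1, the signalling receptor of IL-1alpha and IL-1beta, was highest in fibroblast-like nuclei in all libraries (297, 175, 172, 230 CPM), with endothelial-like nuclei at 169, 135, 121 and 170.0 CPM.

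**Figure D3:**
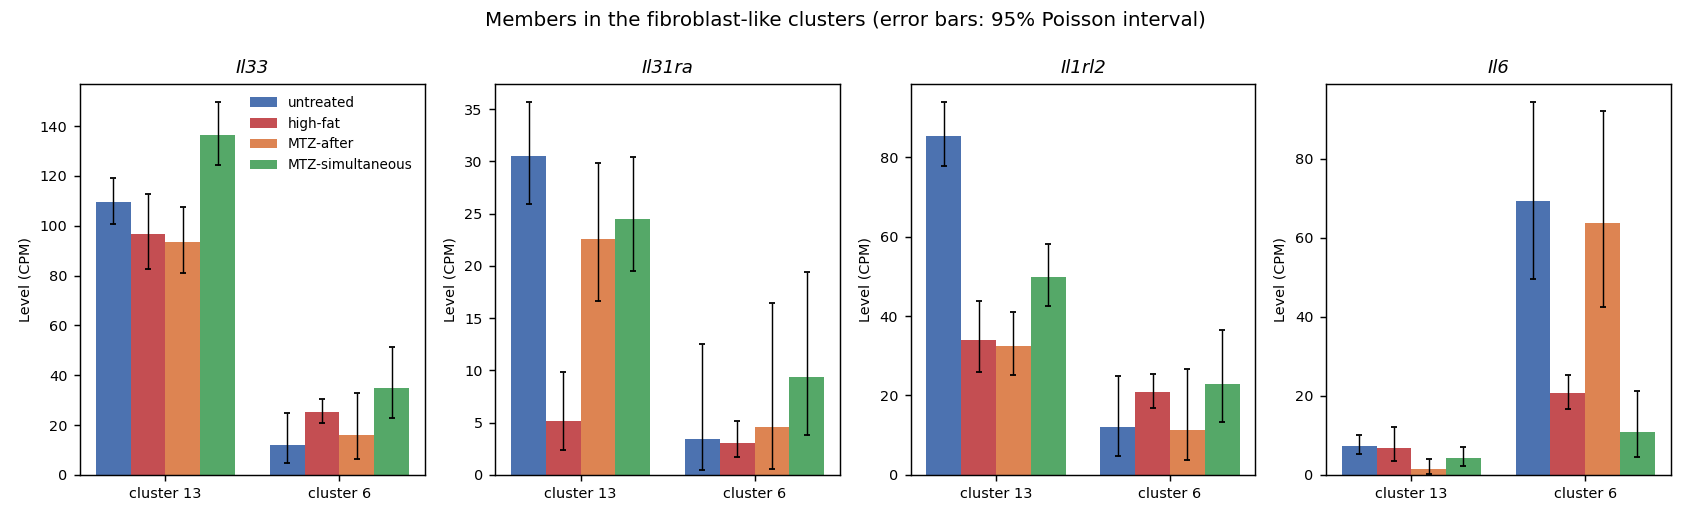
Levels (CPM) of Il33, Il31ra, Il1rl2 and Il6 in the fibroblast-like clusters 13 and 6, by library, with 95% Poisson intervals. In cluster 13 Il31ra is low in high-fat only (5.19 CPM against 22.6 to 30.5 CPM), Il1rl2 is highest in untreated, and Il6 is mostly in cluster 6.

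Other chains of the IL-1 receptor family lie together on chromosome 1, where Il1r2, Il1r1, Il1rl2, Il1rl1, Il18r1 and Il18rap span 478 kb (chr1:40074079-40551705, GRCm38), and they were not held by 1 class. Il1r2, the decoy that binds IL-1 without signalling, was found in monocyte or dendritic-like nuclei (44.3, 20.6, 5.93, 35.4 CPM, on 55, 3, 1 and 11 UMIs). Il1rl1, the IL-33 receptor ST2, stood at 39.5, 34.3, 41.5 and 25.7 CPM in that class. In macrophage-like nuclei Il1rl1 was 15.7 CPM in untreated and 3.07, 7.67 and 5.14 CPM in the other libraries. Its untreated excess sat in clusters 9 and 12 (47.7 and 46.8 CPM), and clusters 3 and 16 had 3.16 and 1.31 CPM.

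The IL-18 receptor chains Il18r1 and Il18rap were high together in T or NK-like nuclei, at 152, 68.2, 87.3 and 168 CPM and at 134, 53.2, 51.9 and 125 CPM. Untreated and MTZ-simultaneous were high and high-fat and MTZ-after low for both chains. Il18r1 UMIs were found in 20.1, 5.80, 6.47 and 14.7% of T or NK-like nuclei, and in 7.01, 3.05, 4.85 and 6.97% after thinning. Endothelial-like nuclei had Il18r1 UMIs in 0.505 to 0.615%, and in untreated the B cell-like (1.82%), mural-like (1.62%) and Schwann-like nuclei (2.16%) had more. Unlike Il18rap (2.42 CPM), Il18r1 had a further level of 77.0 CPM in untreated mesothelial-like nuclei (13.1% with a UMI), where the MTZ libraries had 31.4 and 18.4 CPM.

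Accessory and orphan chains of the family were held by different classes. Il1rapl1, a synaptic adhesion receptor encoded by a 1375 kb gene on the X chromosome, was at 1268 (1232 to 1305), 1120 (906 to 1370), 944 (866 to 1027) and 1325 (1293 to 1357) CPM in mesothelial-like nuclei. In these 68.4, 46.6, 48.0 and 63.6% of nuclei had a UMI, and 35.0, 37.0, 33.0 and 37.7% after thinning, so the thinned shares lay closer together. Macrophage-like nuclei had an Il1rapl1 UMI in 4.57, 0.730, 3.81 and 9.66%, in the order in which mesothelial-like nuclei were 5.99, 0.208, 2.10 and 16.3% of the libraries. Schwann-like nuclei held Il1rapl1 at 397, 114, 402 and 416 CPM. Il1rapl2, its X-linked relative, was at 80.5 CPM (73.2 to 88.4) in adrenal cortex-like nuclei, which came from the MTZ-after library but for 5 nuclei. Il1rap, the shared co-receptor, was spread over classes at 20.6 to 109 CPM in monocyte or dendritic-like and 30.8 to 45.6 CPM in endothelial-like nuclei.

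Among ligands of the common gamma chain, Il7, the survival factor of lymphocytes, was a lymphatic endothelial-like gene in every library. Its level was 74.7 (61.5 to 89.9), 91.3 (48.6 to 156), 90.0 (58.3 to 133) and 106 (83.3 to 134) CPM. All 4 intervals overlapped. Il7 UMIs were in 14.0, 9.85, 8.04 and 11.9% of these nuclei and in 1.13 to 1.94% of fibroblast-like nuclei, and after thinning in 3.55, 5.30, 5.59 and 4.59%. Il15, which sustains NK and memory T cells, was high in monocyte or dendritic-like (279, 247, 208, 202 CPM) and endothelial-like nuclei (214, 155, 233, 253 CPM). Endothelial cluster 11 (Lrrc3b, Unc5d) carried more Il15 than cluster 10 (Sele, Nfasc) in each library, at 301, 217, 281 and 335 CPM against 121, 149, 208 and 174 CPM. High-fat was lowest in cluster 11, where it had 318 nuclei, and 5311 of its 5740 endothelial-like nuclei were in cluster 10.

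Il7r, the IL-7 receptor chain, was high in both T or NK-like nuclei (272, 147, 156, 279.5 CPM) and macrophage-like nuclei (258, 171, 175, 210.3 CPM). Among macrophages the clusters differed more than the libraries. Cluster 16 had 318 (295 to 342), 335 (304 to 367), 429 (352 to 518) and 357 (322 to 395) CPM, and cluster 3 had 314, 251, 360 (293 to 437) and 283 CPM. Cluster 9 was lower (162, 161, 193, 194 CPM) and the Cd163 and Mrc1 cluster 12 lowest in each library (80.3, 97.7, 66.5, 57.7 CPM). Il2rb, the signalling chain of the IL-2 and IL-15 receptors, was highest in T or NK-like nuclei (70.8, 23.2, 26.0, 55.9 CPM), with at most 7.02 CPM in any other class of 100 or more nuclei. Il2rg, the common gamma chain itself, was 29.6, 29.99, 18.9 and 37.3 CPM in T or NK-like and 29.9, 24.0, 21.3 and 33.0 CPM in B cell-like nuclei. Il21r, the IL-21 receptor, was 57.1, 43.0, 28.4 and 31.5 CPM in B cell-like nuclei and 13.9, 21.1, 13.4 and 12.2 CPM in macrophage-like nuclei. Among classes with at least 200 nuclei, T or NK-like nuclei led for Il21r in MTZ-after (37.8 CPM) and MTZ-simultaneous (35.4 CPM). Monocyte or dendritic-like nuclei had 50.7, 75.5, 35.6 and 9.64 CPM of Il21r, on 63, 11, 6 and 3 UMIs.

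Il15ra, which presents IL-15 to neighbouring cells, was highest in brown adipocyte-like nuclei, at 285 (278 to 292), 251 (186 to 331), 301 (258 to 349) and 260.4 (232 to 291) CPM. The libraries overlapped, with 4361, 80, 295 and 330 nuclei behind them. The type 2 receptor chains Il4ra (IL-4 and IL-13) and Il13ra1 were both present in endothelial-like nuclei. Il4ra was 72.7, 71.3, 49.3 and 69.8 CPM, with MTZ-after low, and Il13ra1 was 53.7, 67.8, 57.6 and 53.2 CPM. Il5ra, the IL-5 receptor of eosinophils and B-1 cells, was a B cell-like gene at 69.3 (51.6 to 91.1), 16.9 (10.8 to 25.2), 39.1 (19.5 to 70.0) and 88.0 (73.0 to 105) CPM. Il9r, the IL-9 receptor, had 21.7, 10.6, 0 and 36.7 CPM in the same nuclei. For the 0 of MTZ-after the floor equals 10.7 CPM, and the upper end of the exact Poisson interval lies above this floor. High-fat was low for Il5ra, with an interval below those of untreated and MTZ-simultaneous. The size of the B cell-like class depended on the clustering most in high-fat, with 1122 nuclei here and 501 to 1554 in other clusterings. MTZ-simultaneous had 763 here and 527 to 744 in the others, and the part of this was not tested. Il3ra, the IL-3 receptor, was at 9.99 to 15.9 CPM in macrophage-like nuclei.

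Il12rb2 and Il23r of the IL-12 receptor family, and Il27ra, were highest in T or NK-like nuclei in at least 3 libraries. Il23r, the receptor for IL-23, was 70.8 (56.0 to 88.2), 2.73 (0.330 to 9.85), 23.6 (11.3 to 43.4) and 55.9 (37.7 to 79.8) CPM. Its UMIs came from few nuclei, 79 UMIs from 19 of 542 nuclei in untreated, 2 from 2 of 655 in high-fat, 10 from 7 of 433 in MTZ-after and 30 from 20 of 373 in MTZ-simultaneous. In MTZ-after the adrenal cortex-like nuclei had a like level of Il23r, 22.7 CPM (18.9 to 27.1) on 124 UMIs. Il12rb2, the signalling chain of the IL-12 receptor, was 54.6, 21.8, 11.8 and 29.8 CPM in T or NK-like nuclei and 21.6, 14.2, 15.7 and 8.38 CPM in macrophage-like nuclei, which were higher in MTZ-after. Il27ra, the IL-27 receptor, was 37.6, 16.4, 33.0 and 46.6 CPM in T or NK-like nuclei. High-fat was lowest for Il23r and Il27ra and MTZ-after for Il12rb2. The class's own 12 markers summed to 4093, 2079, 2431 and 3026 CPM. Macrophage markers in T or NK-like nuclei summed to 1095, 3389, 1397 and 1623 CPM. The part of either in the receptor levels was not tested.

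**Figure D4:**
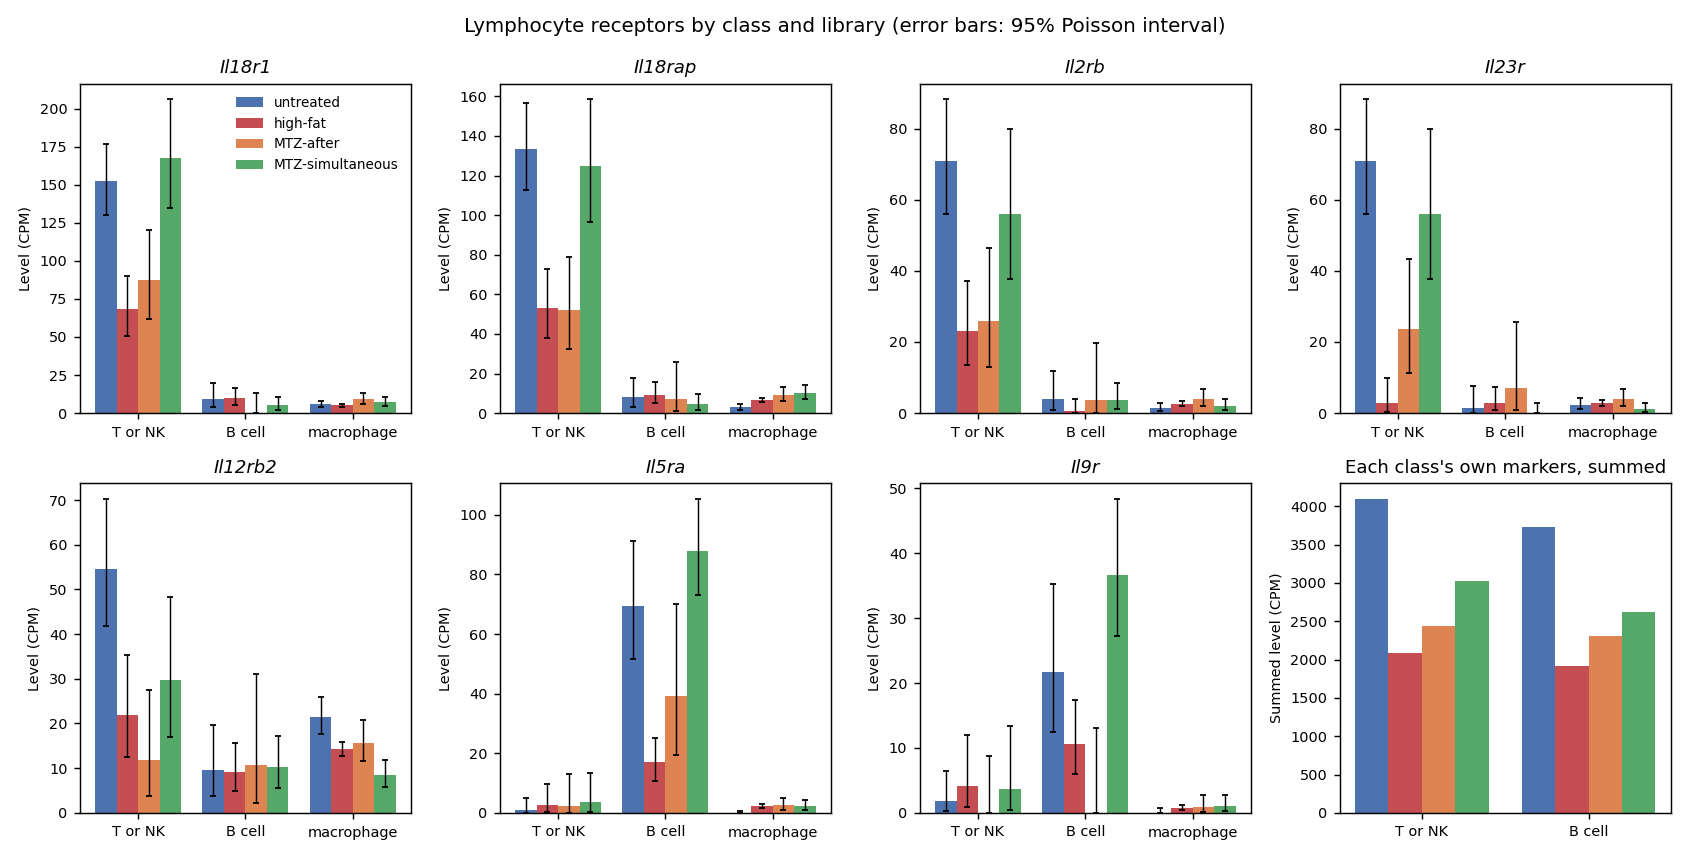
Levels (CPM) of 7 lymphocyte receptors by library in both lymphocyte classes and in macrophage-like nuclei, with 95% Poisson intervals, and the summed level of each lymphocyte class's own markers in the last panel. Il18r1, Il18rap, Il2rb and Il23r are highest in untreated and MTZ-simultaneous T or NK-like nuclei, and the marker sums are also highest in these libraries.

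Il6ra, the ligand-binding chain for IL-6, was high in monocyte or dendritic-like nuclei (481, 440, 249, 373 CPM), where only MTZ-after had an interval (180 to 337) below those of untreated (443 to 521) and high-fat (339 to 561). In macrophage-like nuclei Il6ra was 129, 86.0, 116 and 126 CPM. Il11ra1 was spread at 36.6 to 50.5 CPM in fibroblast-like and 40.4 to 47.6 CPM in macrophage-like nuclei. Its values are uncertain, because the gene overlaps Galt on the same strand and has near-identical copies named Il11ra2, which had 0 counts.

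Both chains of the IL-10 receptor were highest in myeloid nuclei, but not confined to them. Among classes with at least 200 nuclei, the next in high-fat was B cell-like for Il10ra (70.5 CPM) and T or NK-like for Il10rb (90.0 CPM). Il10ra, the ligand-binding chain, was 166, 158, 160 and 170 CPM in monocyte or dendritic-like nuclei, with 4 overlapping intervals (100 to 237 in high-fat). In macrophage-like nuclei Il10ra was 147 (136 to 158), 85.6 (81.7 to 89.7), 98.2 (87.5 to 110) and 119 (108 to 131) CPM, highest in untreated and lowest in high-fat. It depended on the cluster, at 99.6, 93.1, 108 and 98.7 CPM in cluster 3, with overlapping intervals, and 197, 151, 163 and 141 CPM in cluster 16. Cluster 16 held 390 of 1795 untreated but 520 of 18215 high-fat macrophage-like nuclei, and the part of this mix was not tested. Il10rb, the shared accessory chain, was 207, 132, 132 and 149 CPM in macrophage-like nuclei. Within the class it was 179, 154, 176 and 174 CPM in cluster 3, with overlapping intervals, and 278, 219, 171 and 213 CPM in cluster 16. Il20rb, a chain for IL-20 and IL-24, was 30.6, 26.8, 26.3 and 42.1 CPM in endothelial-like nuclei.

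Of the IL-17 receptors, Il17ra, the common chain, was high in monocyte or dendritic-like nuclei (143, 89.3, 202, 196 CPM). Il17re, the IL-17C receptor of epithelia, was mesothelial-like (49.0, 23.6, 43.6, 37.9 CPM, on 2 UMIs in high-fat). Il17rd, a membrane inhibitor of growth factor signalling, was 48.6, 24.7, 40.9 and 49.4 CPM in fibroblast-like nuclei, and Il17rc was 15.4 to 19.8 CPM there. Il16, a chemoattractant cut from a larger precursor, was mesothelial-like as well (166, 94.3, 164, 152 CPM). Il34, a ligand of the CSF1 receptor, was 25.5 (17.9 to 35.3) CPM in untreated mural-like nuclei and 1.60, 5.78 and 4.72 CPM in the other libraries, on 36, 2, 18 and 23 UMIs. Untreated Schwann-like nuclei had 35.4 CPM (22.9 to 52.2) of Il34 on 25 UMIs, an interval that overlapped the mural-like one.

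The other members had too few counts for a level by class. Il3, Il20, Il22, Il24 and Il11ra2 had 0 counts in all libraries. A further 20 members stayed under 50 counts in every library, with totals over the 4 libraries from 1 (Il9) to 138 (Il12a); Il10 had 114, Il2 57, Il5 55, Il12b 52, Il23a 51, Il21 22, Il17a 5 and Il13 4. Another 7 (Il4, Il2ra, Il11, Il27, Il17c, Il17d, Il17rb) had 183 to 361 counts in all but under 50 in every named class of every library. For such genes no difference within a named class could be called by the rule given below. Over all kept nuclei Il27 (121 against 86 counts) and Il17rb (102 against 60 counts) were called higher in MTZ-after than in high-fat.

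Libraries were compared by a rule over all genes: a gene was called when its levels differed at least 2-fold and the higher library had at least 50 counts. In all kept nuclei, high-fat against untreated, 5 of 49 members with enough counts were called higher (Il1rn, Il1a, Il21r, Il10ra, Il7r) and 5 lower (Il15ra, Il1b, Il17re, Il31ra, Il1rapl1), against 13.8% of all genes called. Il7r went from 44.0 to 122 CPM (ratio 2.77, 2.65 to 2.90) and Il1rn by a ratio of 4.03 (3.58 to 4.55). Il1rapl1 went from 96.8 to 9.74 CPM and Il15ra from 167 to 68.7 CPM. Each of the first 5 was counted in macrophage-like nuclei, whose share was higher in high-fat. Il1rapl1 and Il17re were highest in mesothelial-like and Il15ra in brown adipocyte-like nuclei, whose shares were lower. The part of these shares was not tested. With TMM scaling the split was 3 higher and 9 lower. The median log2 ratio was 0.21 over the members with enough counts and 0.09 over all genes.

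Within macrophage-like nuclei 8 of 36 members were called in the same comparison, against 10.0% of all genes. Il1a (ratio 0.470, 0.381 to 0.581), Il1b (0.405, 0.327 to 0.502), Il1rl1 (0.196, 0.139 to 0.275) and Il1rapl1 (0.350) were lower in high-fat. Il1r1 (2.24), Il7 (3.11), Il18rap (2.23) and Il27ra (2.04) were higher. The Il1b ratio became 1.32 with the stricter nucleus filter and 1.32 without doublet removal. In cluster 9 alone none of the 8 was called, but Il1rl1 and Il1rapl1 were lost there to the count limit. Il1rl1 was 47.73 CPM (33.77 to 65.51, on 38 UMIs) in untreated cluster 9 and 1.972 CPM (1.250 to 2.960) in high-fat. Il1rapl1 was 21.35 CPM (12.44 to 34.19, on 17 UMIs) and 6.946 CPM (5.516 to 8.634). The rest of the 8 did not reach the fold limit in this cluster. Cluster 9 made up 434 of 1795 untreated and 9669 of 18215 high-fat macrophage-like nuclei. Fibroblast markers in the class summed to 699 CPM in untreated and 1881 CPM in high-fat, beside the higher Il1r1, and their part was not tested.

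In fibroblast-like nuclei 11 of 28 members were called in high-fat against untreated, against 12.6% of all genes. Called lower were Il31ra (27.8 to 3.66 CPM, ratio 0.132, 0.0812 to 0.205), Il1rapl1 (0.284), Il1rl2 (0.314, 0.260 to 0.378), Il33 (0.452) and Il18 (0.452). In cluster 13 alone Il31ra (0.170, 0.0764 to 0.331) and Il1rl2 (0.398, 0.298 to 0.523) were still called, and Il33 was not (0.884, 0.740 to 1.05). Called higher were Il1rn (ratio 7.36), Il7r (6.08), Il21r (5.89), Il10ra (3.15), Il10rb (2.18) and 1 other. In endothelial-like nuclei 7 of 28 were called, against 9.37%, all higher: Il21r (13.6), Il7r (8.32), Il1rn (5.96), Il10ra (5.63), Il1rl2 (3.32), Il12rb2 (3.12) and Il6ra (2.19). With libraries centred before clustering no member was called in endothelial-like nuclei. The class held different clusters in both libraries, with 740, 1763 and 834 untreated but 5311, 318 and 111 high-fat nuclei in clusters 10, 11 and 14. In cluster 10 alone all 7 were called, among them Il7r (5.56 to 57.0 CPM) and Il1rl2 (ratio 2.69, 1.65 to 4.63). Macrophage markers summed higher in both classes, from 840.5 to 2934 CPM in fibroblast-like and from 564 to 1902 CPM in endothelial-like nuclei, and their part in these 13 higher calls was not tested.

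**Figure D5:**
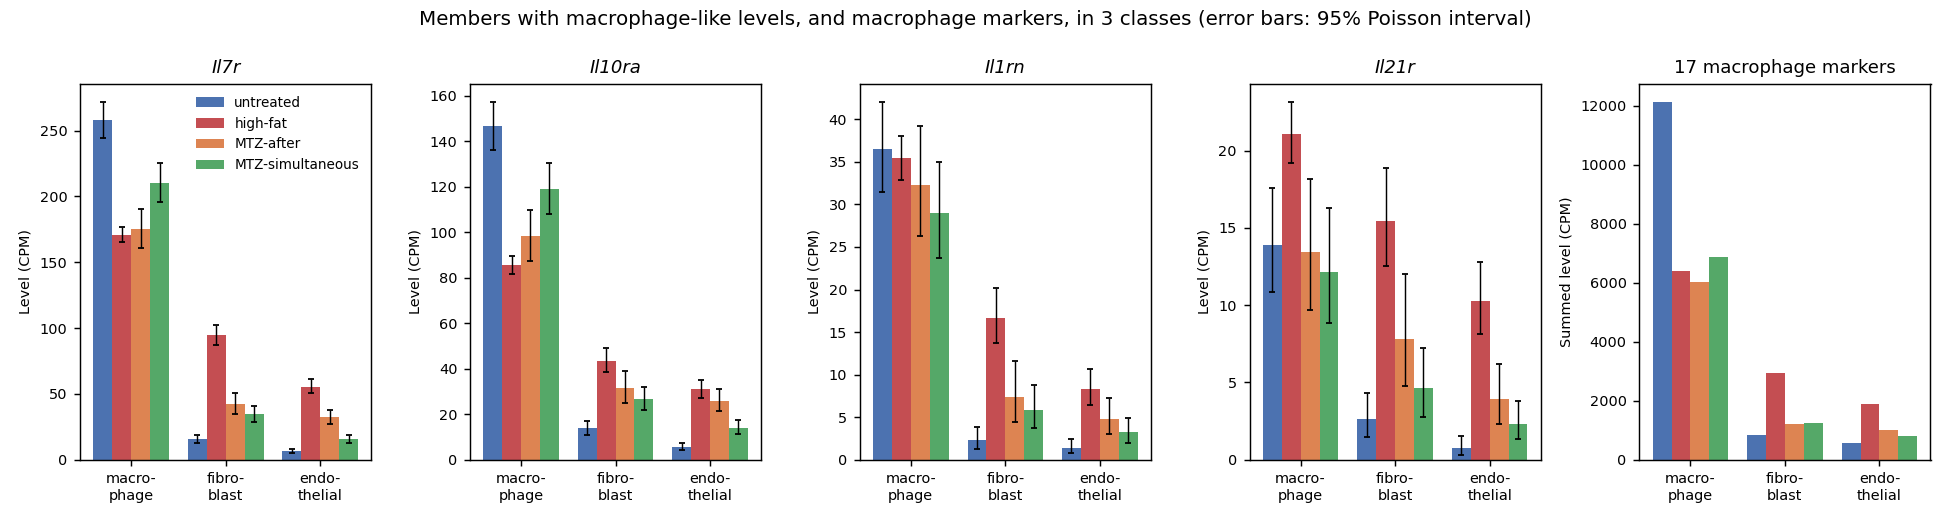
Levels (CPM) of Il7r, Il10ra, Il1rn and Il21r in macrophage-like, fibroblast-like and endothelial-like nuclei by library, with 95% Poisson intervals, and the summed level of 17 macrophage markers in the last panel. In fibroblast-like and endothelial-like nuclei all 4 members and the marker sum are highest in high-fat and lowest in untreated.

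Both MTZ groups were then set against the high-fat library, which they share, so the comparisons are not independent. In all kept nuclei of MTZ-after 7 of 49 members were called higher (Il1rapl2, Il1rapl1, Il23r, Il34, Il17rb, Il31ra and 1 other) and 4 lower (Il1rn, Il1a, Il7r, Il21r), against 16.1% of all genes. In MTZ-simultaneous 7 of 48 were called higher (Il1rapl1, Il17re, Il33, Il31ra, Il16 and 2 others) and 5 lower (Il1rn, Il21r, Il1a, Il12rb2, Il7r), against 10.4%. Il7r went from 122 CPM to 53.4 CPM in MTZ-after (ratio 0.438, 0.414 to 0.463) and to 53.6 CPM in MTZ-simultaneous (0.439, 0.417 to 0.463). Il1rapl1 went to 87.3 and 266 CPM, ratios of 8.97 and 27.3. The share of macrophage-like nuclei was lower and that of mesothelial-like nuclei higher in both MTZ libraries, and their part was not tested. Adrenal cortex-like nuclei were 16.8% of MTZ-after and 1 nucleus of high-fat, and held 439 of 783 Il1rapl2 and 124 of 234 Il23r counts of MTZ-after.

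Within macrophage-like nuclei few members were called against high-fat: 2 of 36 in MTZ-after, against 3.51% of all genes, and 3 of 36 in MTZ-simultaneous, against 3.44%. Il1rapl1 was higher in both (ratios 6.72 and 11.3), beside mesothelial markers that summed to 6.38 CPM in high-fat, 56.3 CPM in MTZ-after and 158 CPM in MTZ-simultaneous macrophage-like nuclei. Il6 was lower in both on 5 and 7 UMIs, and Il23r lower in MTZ-simultaneous on 4, with intervals of the ratio that reached past 1. The myeloid members Il1a, Il1b, Il1rn, Il7r, Il10ra and Il10rb were not called.

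In fibroblast-like nuclei 4 of 27 members were called in MTZ-after, against 6.07%, and 9 of 27 in MTZ-simultaneous, against 6.96%. Il31ra was higher in both, at ratios of 5.32 (3.19 to 9.13) and 5.94 (3.72 to 9.85). In cluster 13 alone its ratios were 4.35 (2.11 to 10.1) and 4.72 (2.37 to 10.7), the former on 48 UMIs and so under the count limit. Il1rapl1 was higher in both (7.92 and 7.34), and Il33 (2.62), Il18 (2.47) and Il17rd (2.0) in MTZ-simultaneous. In cluster 13 alone Il33 was not called (1.41, 1.18 to 1.69), and cluster 6, where it was low, held 2643 of 3987 high-fat but 296 of 2111 MTZ-simultaneous nuclei. Il1rn (0.443 and 0.351) and Il7r (0.445 and 0.364) were lower in both, and Il6 (0.319, 0.192 to 0.508) and Il21r (0.301) in MTZ-simultaneous. Il6 was mostly in cluster 6, where its high-fat and MTZ-simultaneous intervals overlapped, and the part of the cluster mix was not tested. Beside the calls in this class, macrophage markers summed to 2934, 1219 and 1232 CPM in high-fat, MTZ-after and MTZ-simultaneous. Mesothelial markers summed to 5.73, 67.4 and 156 CPM, and the part of either was not tested.

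In endothelial-like nuclei 3 of 28 members were called in MTZ-after, against 6.17%, and 8 of 29 in MTZ-simultaneous, against 6.01%. Il33 was higher in both, from 15.3 CPM to 37.4 CPM (2.45, 1.93 to 3.12) and to 52.0 CPM (3.41, 2.76 to 4.23), as was Il1rapl1 (7.24 and 6.6), and Il31ra (3.78) in MTZ-simultaneous. Il33 depended on the cluster, and was 14.8, 20.7 and 19.3 CPM in cluster 10 of high-fat, MTZ-after and MTZ-simultaneous. It was 14.1, 24.4 and 75.5 CPM in cluster 11 and 39.3, 63.4 and 108 CPM in cluster 14 (Adarb2, Gpihbp1), with 6 UMIs behind each of the high-fat values. Cluster 14 held 1774 of 4234 nuclei in MTZ-after but 111 of 5740 in high-fat, and 279 of 2601 in MTZ-simultaneous. Within the 3 clusters Il33 was not called in MTZ-after (ratios 1.4, 1.73 and 1.61), and in MTZ-simultaneous it was called in clusters 11 and 14 (5.34, 2.42 to 14.7, and 2.75, 1.19 to 7.83). With centred libraries the MTZ-after ratio was 0.708. Il21r (0.381 and 0.228) was lower in both, and Il7r (0.281), Il12rb2 (0.331), Il1rn (0.385) and Il10ra (0.458) in MTZ-simultaneous.

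The genes that work with the members were compared by the same rule. A list of 46 genes held shared chains and decoys, other ligands, and the IL-1, JAK-STAT and NF-kB pathways. In all kept nuclei 44 had enough counts, and 3 were called in high-fat against untreated (13.8% of all genes), all higher: Csf2rb2, a beta chain for IL-3, Il18bp, the IL-18 decoy, and Osm, a ligand of the IL-6 family. In macrophage-like nuclei 3 of 43 were called in that comparison (10.0% of all genes): Osmr and Cish higher and Csf1r lower. Il18bp was 7.09 CPM in untreated and 16.3 CPM in high-fat over all nuclei. In fibroblast-like nuclei 6 of 37 were called in it (12.6% of all genes): Csf2rb, Csf2rb2, Il18bp, Stat4 and Cish higher and Irak3 lower. In endothelial-like nuclei 3 of 37 were called (9.37%), Csf2rb, Csf2rb2 and Csf1r, all higher. Against high-fat the most called was 4 of 37, in MTZ-simultaneous fibroblast-like nuclei, against 6.96% of all genes. Fewer listed genes were called in the other comparisons with high-fat, where the share of all genes called was 3.44 to 16.1%. Irak3, an inhibitor of the IL-1 receptor pathway, was 149 CPM in untreated, 64.5 CPM in high-fat and 132 CPM in MTZ-simultaneous fibroblast-like nuclei, and was called higher in the last of these against high-fat.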

How the data were processed

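The authors deposited filtered matrices of UMI counts per gene and nucleus for 4 libraries, made with Cell Ranger 7.0.1 per the file headers, and with STAR and mm10 per the submitters' processing notes. The sources used here do not give the settings for introns and strand. The members and gene lists were chosen with earlier results of these data known.

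Nuclei with at least 300 genes and at most 10% mitochondrial counts were kept, and the highest 8% of Scrublet doublet scores were removed in each library. Clusters came from 2000 variable genes, 30 principal components, 20 neighbours and Leiden resolution 1 (scanpy 1.11.5, igraph 0.11.9). A class name needed at least 3 markers enriched 2-fold, and either a marker among the 10 leading genes or more than 50% of its markers enriched. Levels are raw counts, summed by class within a library, in CPM with exact 95% Poisson intervals (scipy 1.17.1), shares with Clopper-Pearson and ratios with exact conditional intervals. A call needed a 2-fold ratio and 50 counts in the higher library, and a count of 0 was set to a floor of 3. The calling step was checked on simulated data. Members were described if they had at least 50 counts in some library and named class. Called members are named up to 10 per comparison and class, those with the interval bound farthest from 1. Members described here that overlap a gene on the opposite strand number 15 (Il1a, Il1b, Il18, Il1r2, Il1rap, Il1rapl2, Il7, Il4ra, Il3ra, Il6ra, Il11ra1, Il27ra, Il12rb2, Il16, Il34), whose reads may not be told apart. Alternatives covered the nucleus filter, doublets, resolution, seed, centring of libraries, thinning, equal weight of nuclei, the count minimum and TMM scaling (edgeR 4.0.16), which moved the log2 ratios by -0.14 to -0.03.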

Additional observations from a re-analysis of the deposited data

Results flagged for a closer look

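Il1rl2, the receptor for IL-36, was called in opposite directions in 2 classes of the same pair of libraries. In fibroblast-like nuclei its level in high-fat was 0.314 times that in untreated, and in endothelial-like nuclei it was 3.32 times. The endothelial-like ratio kept its direction but lost its call at resolution 2 (2.5), with centred libraries (6.08), without doublet removal (2.17) and when thinned (2.71). Cluster 10 held 740 of 3337 untreated and 5311 of 5740 high-fat endothelial-like nuclei, and within it the Il1rl2 ratio was 2.69. The difference between the classes was not tested, since each group had 1 library. Macrophage markers in the endothelial-like nuclei summed to 564 CPM in untreated and 1902 CPM in high-fat, and their part was not tested.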

How the results depend on the processing

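Counting error and 1 library per group limit these values, and no paired analysis was possible because each group has 1 library. Of 753 recomputed ratios of called members 592 kept their call, 148 kept the direction only and 13 reversed, and the cause was not tested. The described members with 1 top class in at least 3 libraries numbered 24, and 27 to 30 with other clusterings. For high-fat against untreated, these reversed: Il18rap in macrophage-like nuclei when thinned (0.929), Il1b there with the stricter filter (1.32) and without doublet removal (1.32), and Il12rb2 in endothelial-like nuclei at resolution 2 (0.368) and without doublet removal (0.651). For MTZ-after against high-fat in endothelial-like nuclei, Il21r reversed at resolution 2 (1.37) and without doublet removal (3.56), and Il33 with centred libraries (0.708). For MTZ-simultaneous against high-fat in endothelial-like nuclei, resolution 2 reversed Il1rn (1.31), Il12rb2 (1.97) and Il10ra (1.26), centring reversed Il10ra (1.11), and keeping doublets reversed Il21r (1.80).

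Counts of called members moved by more than 1.5 times as follows, with the fewer genes tested or counts per gene built into the count minimum and thinning. In macrophage-like nuclei, high-fat against untreated gave 8 calls. It gave 5 with centred libraries, 5 when thinned, 5 with equal weight per nucleus and 3 in the largest cluster. None of these 3 was among the 8, of which Il1rl1 and Il1rapl1 were lost there to the count limit. The largest cluster was a setting chosen after seeing the data. MTZ-after against high-fat gave 2, and 8 with a minimum of 10 counts, 15 with none, 4 at resolution 2, 4 with the stricter filter, 1 when thinned and 1 in the largest cluster. MTZ-simultaneous gave 3, and 6, 7 without a minimum, 1 with another seed, 5 with centring and 1 in the largest cluster. In fibroblast-like nuclei the 3 comparisons gave 11, 4 and 9 calls, against 19, 12 and 14 with a minimum of 10, 24, 20 and 19 with none, 4, 1 and 4 when thinned, and 7, 1 and 3 in the largest cluster (6 of the 7 shared). In endothelial-like nuclei they gave 7, 3 and 8 calls, against 13, 11 and 13 with a minimum of 10 and 18, 18 and 17 with none. There the first and last comparison gave 1 and 5 at resolution 2, 0 and 1 with centring, 4 and 4 with the stricter filter, 2 and 5 without doublet removal, and 3 and 3 when thinned. In all kept nuclei no total of calls moved by more than 1.5 times, but for high-fat against untreated the split of 5 higher and 5 lower became 3 and 9 with TMM, 4 and 9 with equal weight per nucleus, and 10 and 5 with a minimum of 10 counts or none.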
